A study of Arabidopsis thaliana with 9 samples.

Results

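Transcript levels of the Arabidopsis thaliana line iae2 were compared with those of the line B1798 on 6 of the 9 arrays of the series, 3 per line, across all probe sets that were bright enough to be read. Of 22746 probe sets other than the array maker's controls, 13879 reached the 40th percentile of their own array on at least 3 of these 6 arrays and were tested, and through them 7459 genes. Both lines, and the line iae1 whose values are given beside them, were in the Ler ecotype and were grown with 1% sucrose to growth stage 1.0, and RNA came from the crown, hypocotyl, cotyledons and apical meristem bud together. The iae lines come from a search for mutants in which the maize element Ac leaves its site more often than usual. B1798 is taken as the reference because its name carries no iae; the labels give it no role and describe no transgene or allele for any line. A pool of 30 plants is stated for the series without the unit it belongs to, and the labels do not say that replicate arrays came from separate cultures. The p-values therefore measure the spread between arrays of a line, which may be technical.

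Arabidopsis seedlings carry several chemical defences that are built from large gene families. Small cysteine-rich peptides (defensins and thionins) act on microbes, glucosinolates and other glucosides are stored apart from the glucosidases that release their toxic parts, and class III peroxidases and glutathione S-transferases handle peroxides and reactive compounds. The plant cell wall is loosened and rebuilt by further families, and the chloroplast depends on genes of the nucleus and of its own genome. The gene lists below follow these roles. They were chosen with earlier results of these data known, so the order of their shares called is descriptive.

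The unit is the deposited signal of a probe set on a linear scale, set by the authors to a common scale across arrays. Changes are differences of log2(signal + 16), iae2 minus B1798, with a standard error (SE) from limma fitted to the 6 arrays, and a gene is called at a Benjamini-Hochberg adjusted p below 0.05. Of the 7459 genes, 1214 were called (16.3%), 687 higher (9.21%) and 527 lower (7.07%) in iae2. Among probe sets 2349 of 13879 were called (16.9%), 1337 higher (9.63%) and 1012 lower (7.29%), but with array medians set equal the split was 1085 higher and 1326 lower, so which direction prevails depends on the scaling. Most called changes were small. Their median size was 0.47, 1304 of the called probe sets were under 0.5, and 180 (1.3% of those tested) changed at least 2-fold (131 higher, 49 lower). Among the 1099 genes that carry a symbol, from which most list members come, 20.7% were called. Calls were more frequent among bright genes, from 8.24% in the dimmest of 5 equal groups to 26.9% in the brightest, where 178 genes were higher and 224 lower. The 3 arrays of one line did not overlap with those of the other for 32.8% of genes and 33.9% of probe sets.

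A sign of RNA quality moved with the line, while others overlapped. The 3'/5' signal ratio of the GAPDH control was 2.275, 2.805 and 3.109 on the B1798 arrays and 1.733, 1.876 and 1.984 on the iae2 arrays, so every iae2 array was lower (exact permutation p = 0.1, the smallest that 3 against 3 allow). The actin ratio was 9.837, 8.135 and 5.758 in B1798 and 7.56, 4.02 and 5.612 in iae2 (exact permutation p = 0.2). The ubiquitin ratio was 2.847, 2.924 and 3.149 in B1798 and 2.401, 2.38 and 2.953 in iae2 (exact permutation p = 0.3). With the GAPDH ratio as a covariate in the limma fit, 207 genes and 368 probe sets were called. Of those 368, 328 were also called without it, all in the same direction. Over the 2349 calls the median SE went from 0.102 to 0.205 while the median size went from 0.47 to 0.46. The ratio did not overlap between the lines, so line and RNA quality cannot be told apart by this fit. A call kept with the covariate does not separate them. Of the 153 called genes in the set from which named genes were taken, 42 were called with the covariate and 139 kept their sign, and 98 stayed called with each of the 6 arrays left out in turn. Few of the tissue's markers had a named probe set. RCA, the Rubisco activase of mesophyll, was bright in both lines (2702.1, 2681.2 and 2655.1 in B1798, 2746.5, 2519.0 and 2820.3 in iae2), the meristem genes CLV3 and LAS were at 5.1 or less and at 42.6 or less, and the root list, led by PYK10, summed to 4041 to 4508 in B1798 and 3372 to 3735 in iae2. The other 3 root markers with a probe set, EXPA7 (0.31), EXPA18 (0.29) and AT5G17820 (0.34), lay above 0. No marker of seed, flower, trichome or vascular tissue had a named probe set, so their part in the results was not tested. In these mixed organs fewer cells of a type and less RNA per cell cannot be told apart.

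**Figure D1:**
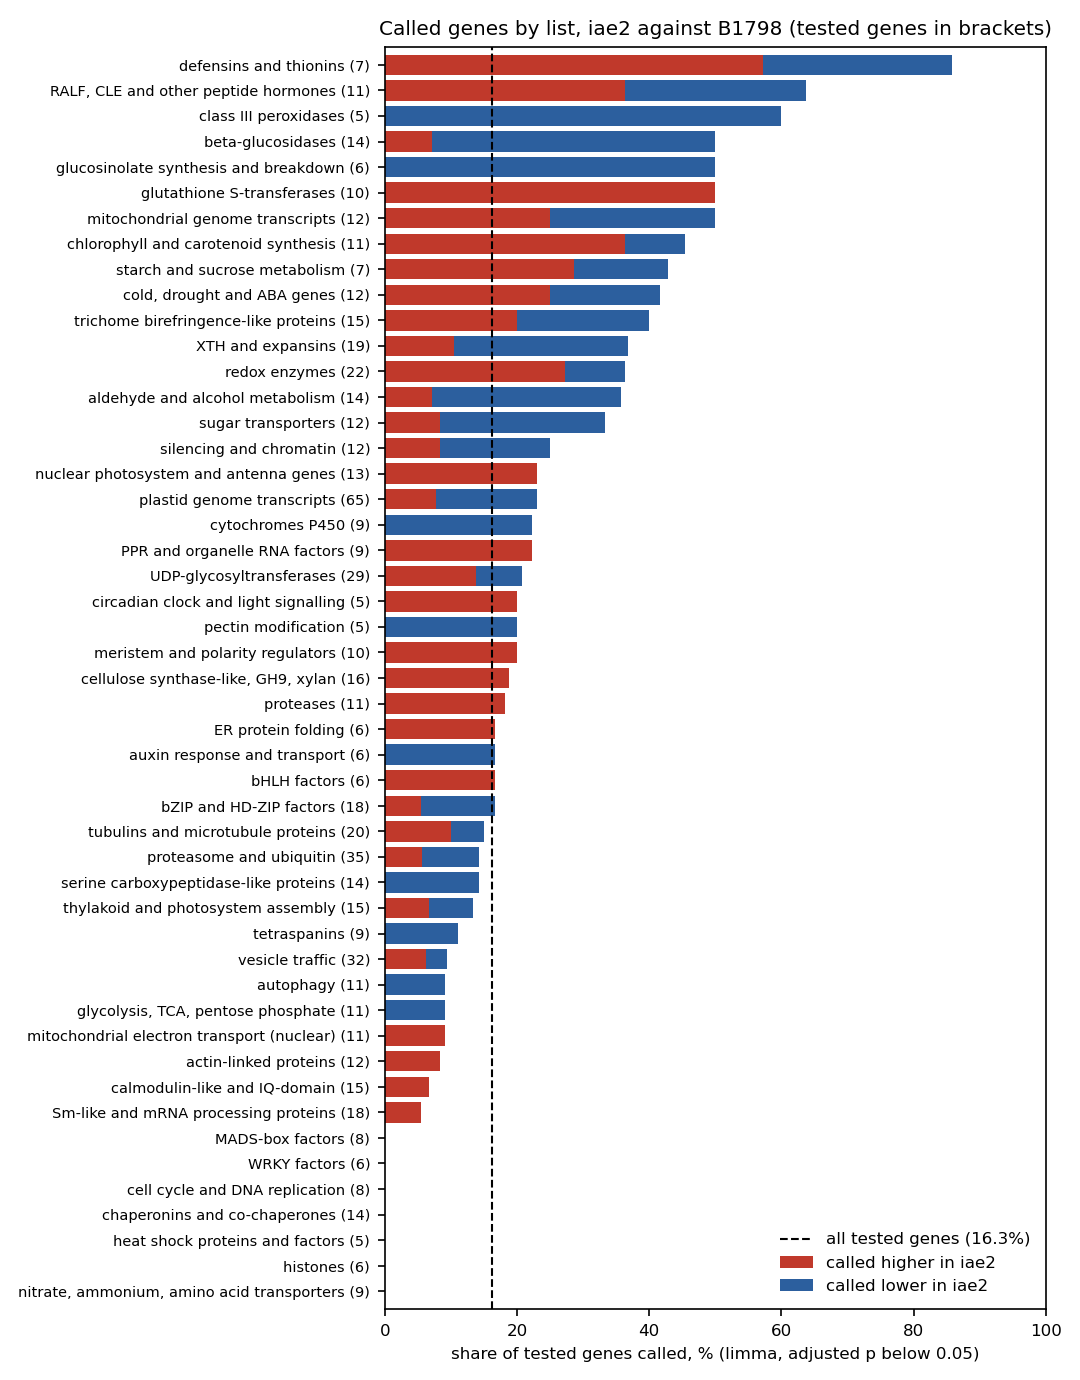
Share of tested genes called higher (red) or lower (blue) in iae2 against B1798, in percent, for the 49 lists with at least 5 tested genes, with the number tested in brackets; the dashed line is the 16.3% of all tested genes. Defensins and thionins have the highest share, 85.7%, in both directions, while 7 lists at the bottom have no called gene. The lists were chosen with earlier results of these data known, so their order is descriptive.

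Antimicrobial peptide genes moved in both directions. The list was drawn mainly by symbol and does not hold AT1G66100, a thionin gene without one. That gene passed the brightness filter in iae2 only, and its rise of 4.56 is given with the largest changes. Of 15 listed defensins and thionins 7 were tested, and 4 rose and 2 fell (85.7%, with a median change of 0.65 against 0.0 over all genes). PDF1.2b, a defensin gene of the jasmonate and ethylene response, had signals of 115.3, 165.0 and 144.9 in B1798 and 464.3, 440.9 and 643.2 in iae2, a change of 1.75 ± 0.14 (SE, adjusted p = 1.01e-06). Its probe set can also detect related transcripts, and it is a near copy of PDF1.2, which rose by 2.37, so reads of the copies cannot be fully separated. LCR68 (0.69, adjusted p = 3.7e-05) and PDF2.5 (0.65, adjusted p = 0.0129), defensin-like genes named after their values were seen, were the other rises.

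THI2.1, a thionin gene, fell from 388.7, 368.0 and 394.8 to 189.2, 172.4 and 165.3 (-1.06 ± 0.08, adjusted p = 8.96e-07). PDF1.4 fell from 513.5, 477.2 and 587.0 to 273.8, 247.3 and 311.5 (-0.89 ± 0.1, adjusted p = 2.73e-05). For these genes the iae2 arrays lay wholly apart from the B1798 arrays, while LCR69, the brightest member, overlapped (1301.4 to 1489.1 against 1146.4 to 1458.8, adjusted p = 0.656). Leaving out 1 array gave 3 or 4 rises and 2 falls, and with the GAPDH covariate 3 rose and 1 fell. PDF1.4 was then not called (-0.68, adjusted p = 0.117).

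Class III peroxidases are secreted enzymes that use hydrogen peroxide to oxidise phenolics and to stiffen walls. No tested member of the list lay above 0, and genes of the family outside the list are not counted here. Of 7 listed genes 5 were tested and 3 fell. PRX52, a peroxidase known from lignin formation in stem fibres, went from 105.8, 110.0 and 109.7 to 27.3, 27.4 and 26.7 (-1.53 ± 0.1, adjusted p = 1.81e-07). Prx37 went from 147.4, 145.2 and 122.1 to 44.4, 42.8 and 28.9 (-1.5 ± 0.13, adjusted p = 1.93e-06). In both genes every iae2 array lay far below every B1798 array, and both were also called with the GAPDH covariate (-1.49 and -1.89). The third fall, AT5G64120 (-0.31), was lost without any array other than B1798 replicate 1 (adjusted p up to 0.116). PRXR1 (-0.21) and the remaining member (-0.15) did not pass.

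Glutathione S-transferases, which join glutathione to reactive compounds, had 5 rises and no fall among 10 tested of 14 listed genes. That was 50.0% called, against 16.3% of all genes, with a median of 0.31. GSTU16 rose from 167.4, 148.9 and 146.6 to 319.2, 326.9 and 312.0 (0.98 ± 0.08, adjusted p = 2.01e-06). The 2 lines were well separated there, and iae1 stood with B1798 at a mean of 141.0. GSTU26 rose by 0.46 (adjusted p = 0.00761) and GSTU22 by 0.59 (adjusted p = 0.00943, or 0.0572 without iae2 replicate 1). GSTU20 (0.34) and GSTL3 (0.28) passed narrowly; the first call was lost without any array other than iae2 replicate 1 (adjusted p up to 0.195) and the second without any other than B1798 replicate 1 (up to 0.161). With array medians set equal 3 members rose, and with the GAPDH covariate GSTU16 alone. Leaving out B1798 replicate 1 gave 4 rises and leaving out any other array gave 3. GSTU22 and GSTU25, which was not called, passed the brightness filter in iae2 only.

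Thiol redox enzymes, which reduce disulfides and oxidised methionine, showed 6 rises and 2 falls among 22 tested genes (36.4%). The glutaredoxin gene GRXC1 rose from 175.6, 172.2 and 196.6 to 455.9, 506.7 and 557.8 (1.4 ± 0.09, adjusted p = 1.5e-07). Methionine sulfoxide reductases of the B type did not move together. MSRB6 rose from 133.8, 139.3 and 157.9 to 301.8, 266.7 and 314.6 (0.96 ± 0.09, adjusted p = 7.02e-06), and its neighbour in locus number MSRB5 rose by 0.51 (adjusted p = 0.00211). MSRB9 fell from 605.2, 654.7 and 708.9 to 446.1, 479.4 and 466.1 (-0.48 ± 0.08, adjusted p = 0.000938), and MSRB3 (0.10) did not pass. GRX480, a glutaredoxin of the salicylate response, fell by 0.41 on the log2 scale, a call lost without B1798 replicate 1 or 2 or iae2 replicate 1 or 3 (adjusted p up to 0.113). GRXC1 and MSRB6 were the members still called with the GAPDH covariate.

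**Figure D2:**
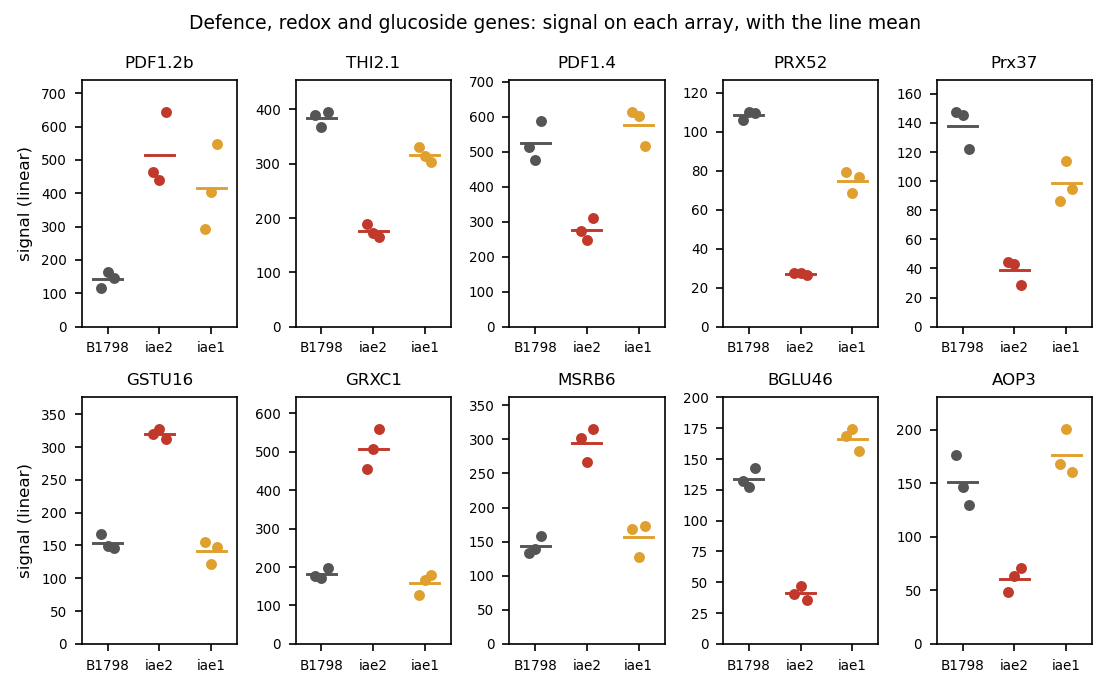
Linear signal (y axis) on each array for 10 genes of defence, redox and glucoside metabolism in B1798, iae2 and iae1; points are arrays and bars are line means. PRX52 lies at 26.7 to 27.4 on the iae2 arrays against 105.8 to 110.0 in B1798, and GRXC1 at 455.9 to 557.8 against 172.2 to 196.6.

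Several transcripts of glucoside metabolism were lower in iae2. Beta-glucosidases, which split sugars from stored glucosides, had 6 falls and 1 rise among 14 tested genes (50.0%, median -0.26). BGLU45 and BGLU46, known to act on the glucosides of lignin precursors, were adjacent in locus number and both fell. BGLU46 went from 132.5, 127.3 and 142.5 to 40.1, 47.3 and 35.8 (-1.4 ± 0.11, adjusted p = 7.95e-07). BGLU45 went from 61.5, 57.8 and 49.0 to 28.3, 20.0 and 21.3 (-0.88 ± 0.13, adjusted p = 0.000293). Every iae2 array was below every B1798 array in both. BGLU28 (-0.58, adjusted p = 0.00419), a gene known from sulfur starvation, and BGLU15 (-0.49, adjusted p = 0.00324) fell less, and these 4 falls were also called with the GAPDH covariate (-1.37, -1.23, -1.1 and -0.83 for BGLU46, BGLU45, BGLU28 and BGLU15).

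PYK10, the glucosidase of endoplasmic reticulum bodies and the brightest member, went from 3926.3, 4395.4 and 4333.2 to 3210.6, 3232.7 and 3581.2 (-0.33 ± 0.1, adjusted p = 0.0275). Its arrays did not overlap, but the call was lost without B1798 replicate 2 or 3 or iae2 replicate 1 or 2 (adjusted p up to 0.121). It was also lost with quantile normalization, and the covariate brought the change to -0.11. BGLU44 rose from 666.3, 681.9 and 653.1 to 839.9, 772.7 and 834.6 (0.28, adjusted p = 0.0211), a call lost without B1798 replicate 2 or 3 or iae2 replicate 1 or 3 (up to 0.071) or with equal array medians.

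Glucosinolate genes had 3 falls and no rise among 6 tested (50.0%, against 16.3% of all genes). AOP3, which forms hydroxyalkyl glucosinolates and is the AOP gene known to be active in Ler, went from 176.4, 146.8 and 129.4 to 48.8, 63.2 and 70.9 (-1.12 ± 0.13, adjusted p = 3.27e-05). BCAT4, the aminotransferase that opens methionine chain elongation, went from 430.9, 403.0 and 338.9 to 227.6, 264.2 and 224.2 (-0.67 ± 0.1, adjusted p = 0.000301). AOP1, a relative of AOP3 with unsettled function, fell by 0.46 on the log2 scale (adjusted p = 0.00194). Both AOP3 and BCAT4 lay wholly below B1798 and stayed called with the covariate and without any single array. The transporters GTR1 (-0.24) and GTR2 (0.15) and the glucosyltransferase UGT74B1 (-0.06) did not pass.

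UDP-glycosyltransferases, which add sugars to hormones and phenolics, were close to the background with 4 rises and 2 falls among 29 tested genes (20.7%, median 0.09). UGT88A1 rose from 175.1, 224.4 and 212.4 to 437.2, 390.9 and 438.8 (1.0 ± 0.1, adjusted p = 7.02e-06), with iae1 at a mean of 223.0. UGT76C1, which inactivates cytokinins by N-glucosylation, rose by 0.58 (adjusted p = 0.00349). UGT76E2 (-0.73, adjusted p = 0.00223) and UGT73B5 (-0.65, adjusted p = 0.00228, bright enough in B1798 only) fell. With the GAPDH covariate UGT88A1 was called alone (1.29). Of the P450 genes, 2 of 9 fell (22.2%, against 16.3% of all genes) and none rose. CYP71B23 fell by 0.41 and CYP71B29 by 0.42 on the log2 scale. The second call was lost without any array other than B1798 replicate 3 (adjusted p up to 0.135).

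**Figure D3:**
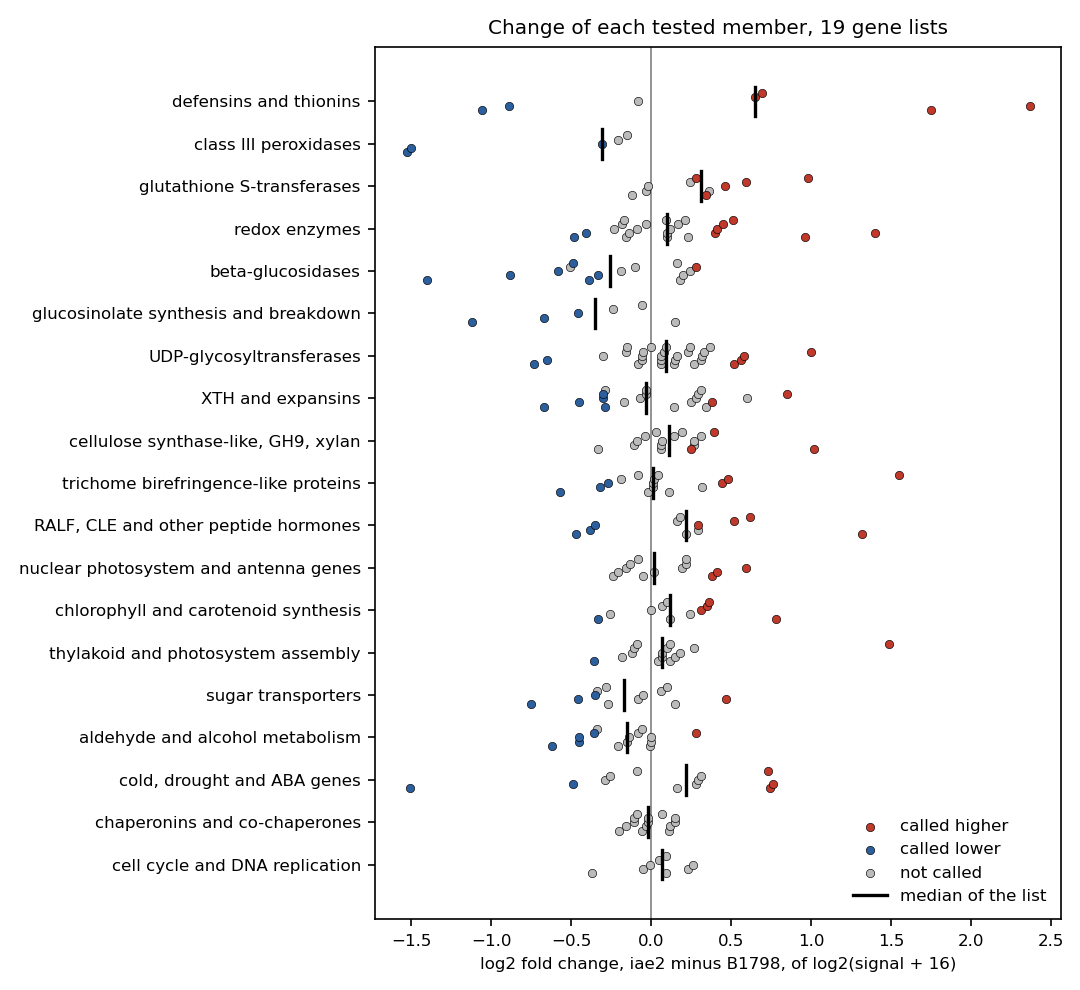
Change of each tested member (x axis, log2 fold change of signal + 16, iae2 minus B1798) for the lists described at length and for those of chaperonins and cell cycle genes; red and blue points are called, grey points are not, and black bars are list medians. The tested peroxidases of the list lie wholly below 0, from -1.53 to -0.15, while chaperonins stay between -0.20 and 0.15.

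Xyloglucan endotransglucosylases (XTH), which cut and rejoin xyloglucan chains, and expansins, which loosen walls without cutting them, had 5 falls and 2 rises among 19 tested genes (36.8%, median -0.03). XTH18 went from 262.2, 291.5 and 273.0 to 178.7, 155.0 and 166.7 (-0.67 ± 0.09, adjusted p = 8.55e-05), and XTH16 fell by 0.45 on the log2 scale (adjusted p = 0.00369). The expansin gene EXPA4 rose from 37.1, 24.5 and 21.2 to 67.5, 69.0 and 50.2 (0.85 ± 0.15, adjusted p = 0.00126). XTH18 and EXPA4 were separated between the lines, yet with the GAPDH covariate no member of this list was called and EXPA4 went to 0.19. EXLB1 (0.38) was lost without B1798 replicate 3 or iae2 replicate 2 or 3 (adjusted p up to 0.108), and EXPA8, the brightest, did not pass (-0.03). Leaving out B1798 replicate 3 gave 5 falls and leaving out iae2 replicate 3 gave 4, while leaving out any other array gave 2.

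Of 5 pectin genes 1 was called (20.0%, against 16.3% of all genes). ATPMEPCRD, a pectin methylesterase gene, fell from 103.4, 118.1 and 106.4 to 42.5, 31.0 and 31.8 (-1.3 ± 0.12, adjusted p = 3.25e-06). It was also called with the covariate (-1.36). Its iae2 arrays were all below B1798, and iae1 lay between at a mean of 59.3. Genes of cellulose and hemicellulose formation had 3 rises among 16 tested (18.8%). GH9B8, of the endoglucanase family, rose from 67.2, 90.1 and 64.3 to 178.0, 160.7 and 157.4 (1.02 ± 0.11, adjusted p = 2.39e-05, or 0.0562 with the covariate). COB, which orients cellulose deposition, rose by 0.25, a call lost without any one of the 6 arrays (adjusted p up to 0.158), as was GH9C2 (0.39) without any other than B1798 replicate 3 (up to 0.168). Leaving out any array other than B1798 replicate 3 gave 1 rise, and with array medians set equal 1 member of this list rose and 1 fell.

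Trichome birefringence-like (TBL) genes, many of which encode acetyltransferases of wall polysaccharides, had 3 rises and 3 falls among 15 tested (40.0%, median 0.01). TBL36 rose from 72.4, 64.9 and 80.8 to 280.0, 217.5 and 235.9 (1.55 ± 0.11, adjusted p = 2.81e-07), far above every B1798 array, and iae1 had a mean of 76.4. TBL39 rose by 0.48 (adjusted p = 0.0071). AT2G31110, the largest fall of the list, went from 196.2, 183.3 and 172.6 to 111.1, 112.0 and 132.9 (-0.57 ± 0.09, adjusted p = 0.000744). The rise of TBL45 (0.44) was lost without iae2 replicate 1 (adjusted p = 0.052), and the falls of TBL38 (-0.32) and TBL37 (-0.27) without any array other than B1798 replicate 1 (up to 0.128 and 0.148). Leaving out any array other than B1798 replicate 1 left 1 fall. TBL36 was the member still called with the GAPDH covariate.

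Signalling peptides had 4 rises and 3 falls among 11 tested of 19 listed genes (63.6%, median 0.22). RALF peptides bind receptor kinases of the FERONIA family, which sense the wall, and CLE41 holds vascular stem cells in an undifferentiated state. RALFL27 was at 3.4, 1.1 and 2.4 in B1798 and 26.8, 29.8 and 32.8 in iae2 (1.32 ± 0.14, adjusted p = 2.05e-05), so it was dim in both, passed the filter in iae2 only, and the added 16 understates its change. In iae1 it was also present, at a mean of 26.4. CLE41 rose from 48.2, 66.1 and 47.8 to 93.1, 89.5 and 89.9 (0.62 ± 0.12, adjusted p = 0.00198), and RALFL32 by 0.52 (adjusted p = 0.000816). These 3 rises held without each array, but with the GAPDH covariate no member was called, RALFL27 narrowly (1.3, adjusted p = 0.0532).

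Falls among the peptides were smaller. STOMAGEN, which promotes stomata, went from 173.7, 222.1 and 183.4 to 136.6, 144.9 and 151.2 (-0.38 ± 0.1, adjusted p = 0.0168, lost without B1798 replicate 2 or iae2 replicate 1, up to 0.0925). RALFL18 fell by 0.47 on the log2 scale and was lost without B1798 replicate 2 or 3 or iae2 replicate 1 or 2 (up to 0.0942). Leaving out B1798 replicate 2 or iae2 replicate 1 left no fall among the peptides, and leaving out iae2 replicate 2 left 1. FER, the receptor kinase gene FERONIA, did not pass (226.9, 236.4 and 224.3 against 286.0, 256.0 and 215.1, a change of 0.12).

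**Figure D4:**
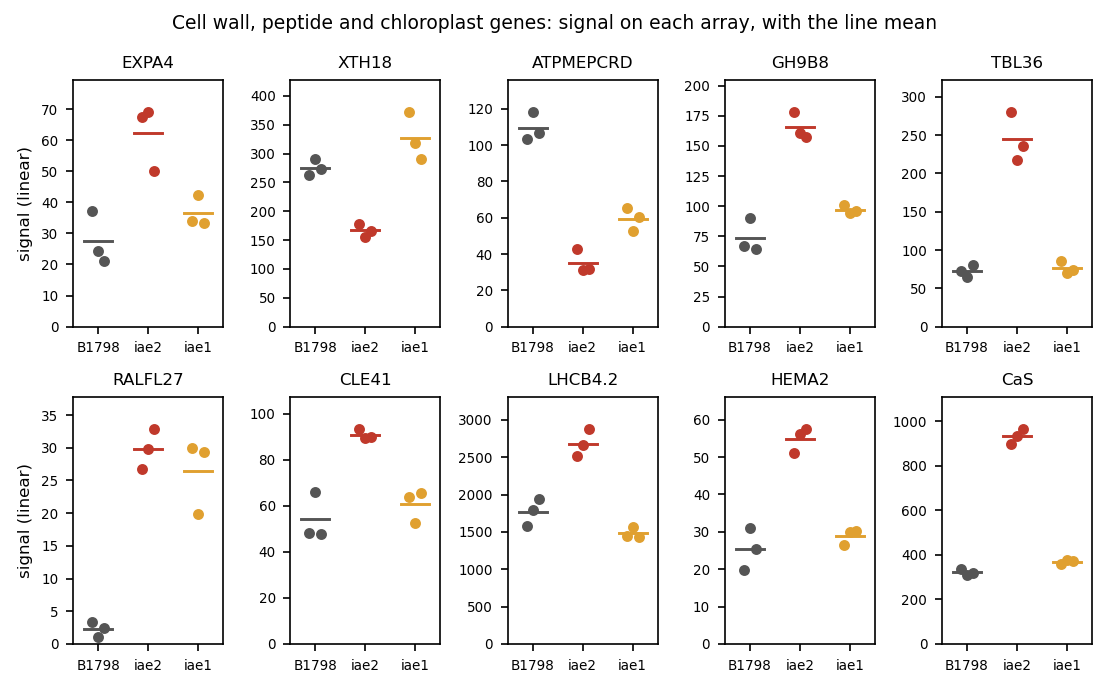
Linear signal (y axis) on each array for 10 genes of the cell wall, peptide signalling and the chloroplast in B1798, iae2 and iae1; points are arrays and bars are line means. TBL36 lies at 217.5 to 280.0 on the iae2 arrays against 64.9 to 80.8 in B1798, and RALFL27 is near 0 in B1798 alone.

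Chloroplast genes of the nucleus changed in a few members. Of 13 photosystem, antenna and NDH genes 3 rose and none fell (23.1%, median 0.02). LHCB4.2, for a minor antenna protein of photosystem II, rose from 1578.3, 1795.6 and 1944.2 to 2510.2, 2656.6 and 2871.5 (0.59 ± 0.1, adjusted p = 0.000735), whereas its close relative LHCB4.1 did not pass (3711.0, 4299.8 and 4225.5 against 3238.9, 3651.7 and 4062.6, a change of -0.16) and LHCB4.3 was at 0.02. NdhL rose by 0.38 (adjusted p = 0.00764) and NdhN by 0.41 (adjusted p = 0.0172); the second was lost without B1798 replicate 2 or 3 or iae2 replicate 1 or 3 (up to 0.0712). Quantile normalization gave 5 rises in this list, and with the covariate LHCB4.2 was called alone (0.97).

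Pigment synthesis had 4 rises and 1 fall among 11 tested genes (45.5%, median 0.12). HEMA2, a second form of glutamyl-tRNA reductase at the start of tetrapyrrole synthesis, rose from 19.9, 31.1 and 25.5 to 51.2, 56.2 and 57.4 (0.78 ± 0.13, adjusted p = 0.000731). CHLM, the methyltransferase of the magnesium branch, rose from 681.3, 726.2 and 702.0 to 920.4, 933.0 and 843.6 (0.35 ± 0.08, adjusted p = 0.00746). HEMB1, an early porphyrin enzyme, fell by 0.33 on the log2 scale (adjusted p = 0.0118), and HEME2 rose by 0.36 (lost without B1798 replicate 2 or iae2 replicate 3, up to 0.0558). Lines did not overlap for HEMA2 and CHLM, and HEMA2 stayed called with the covariate (1.1). Leaving out B1798 replicate 2 or iae2 replicate 3 gave 2 rises.

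Of 15 tested genes of thylakoid structure and photosystem assembly 2 were called (13.3%, against 16.3% of all genes). The larger change lay in 1 gene. CaS, the calcium-sensing protein of thylakoid membranes, rose from 334.4, 310.9 and 320.3 to 898.4, 934.2 and 962.4 (1.49 ± 0.08, adjusted p = 1.46e-08), and to 1.46 with the covariate. All iae2 arrays lay far above those of B1798 and of iae1, whose mean was 369.0. The only other call was AT4G38100 (-0.36), lost without any array other than B1798 replicate 2 (up to 0.135), and the brightest member, AT4G01150, did not pass (-0.11).

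Transcripts of the plastid genome are rarely polyadenylated, and the labelled RNA was primed with oligo-dT, so their signal reads only the primed share. Of 69 listed genes 65 were tested, 5 rose and 10 fell (23.1%, median -0.11), and 43 lay below 0. In the brightest of the 5 equal groups of all genes, 26.9% were called, with a median of -0.05. Quantile normalization gave 6 rises and 8 falls in the plastid list (median -0.08). Photosystem II genes had a median of -0.20 with 13 of 15 below 0, all 6 cytochrome b6f genes lay below 0 (median -0.19), and ribosomal protein genes had a median of 0.10. Most of these were not called: 2 photosystem II and 2 cytochrome b6f genes were called lower. The photosystem II gene psbK, named after its values were seen, was called higher. It rose from 594.2, 641.2 and 663.7 to 1121.0, 1055.8 and 961.6 (0.71 ± 0.09, adjusted p = 5.05e-05). The gene ccsA, for a cytochrome c assembly protein and in none of these complexes, rose from 792.6, 710.7 and 833.6 to 2641.7, 2572.8 and 2428.0 (1.69 ± 0.09, adjusted p = 1.46e-08). Some genes stood apart from others of the same complex. The photosystem I core gene psaA rose from 131.1, 183.7 and 126.0 to 464.1, 326.6 and 295.0 (1.21 ± 0.15, adjusted p = 8.33e-05), while its partner in the core, psaB, did not pass (-0.03).

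The adjacent ycf3, whose product helps assemble photosystem I, rose by 0.84 (adjusted p = 0.000354), and petN, for a small cytochrome b6f subunit, fell from 270.1, 160.4 and 158.7 to 71.8, 86.0 and 100.5 (-1.03 ± 0.16, adjusted p = 0.000571). The brightest, psbA for the D1 protein, fell from 4824.3, 6205.6 and 6569.1 to 4281.4, 3634.5 and 4838.7, where the lines overlapped (-0.46, adjusted p = 0.0294). Its call was lost without B1798 replicate 2 or 3 or iae2 replicate 1 or 2 (up to 0.16), and with quantile normalization. With the GAPDH covariate 2 rose and 2 fell, ccsA (1.67) and petN (-1.62) among them, psaA went to 0.99 (adjusted p = 0.161) and psbA to 0.06. Leaving out iae2 replicate 2 gave 4 falls and iae2 replicate 1 gave 6, against 8 to 12 without any other array.

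**Figure D5:**
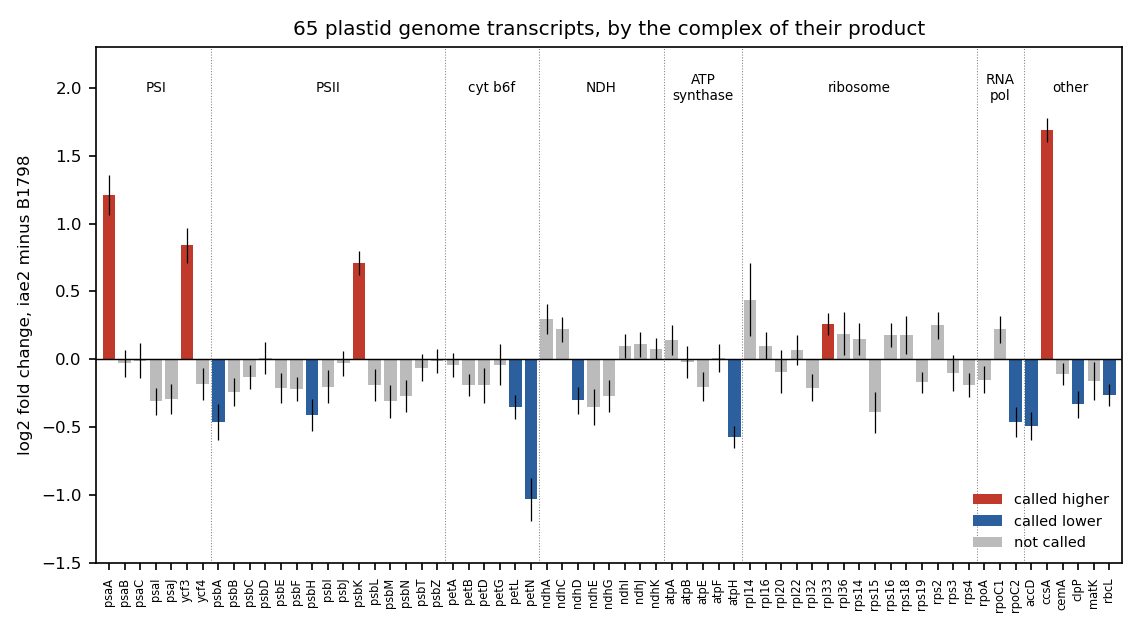
Log2 fold change of 65 plastid genome transcripts (y axis, iae2 minus B1798, error bars are SE from the limma fit of 3 against 3 arrays), grouped by the complex of their product; red and blue bars are called. The highest bar is ccsA at 1.69 and the lowest petN at -1.03, and all bars of the cytochrome b6f group lie below 0, 2 of them called.

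Mitochondrial genome transcripts, open to the same limit of priming, had 3 rises and 3 falls among 12 tested genes (50.0%, median -0.04). The complex I gene nad1 rose from 43.7, 40.1 and 46.9 to 77.1, 68.3 and 94.1 (0.68 ± 0.12, adjusted p = 0.00125), while nad4 of the same complex fell from 366.1, 405.2 and 336.2 to 224.3, 228.4 and 257.7 (-0.61 ± 0.09, adjusted p = 0.000336). The cytochrome oxidase gene cox1 fell from 585.3, 598.7 and 713.5 to 419.7, 377.7 and 411.3 (-0.63 ± 0.09, adjusted p = 0.000255). In each of these the lines were separated, but with the covariate no member was called. Nuclear genes of mitochondrial electron transport had 1 rise among 11 tested (9.09%, against 16.3% of all genes).

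Sugar transporters had 3 falls and 1 rise among 12 tested (33.3%, median -0.17). SAG29, a SWEET sugar exporter of ageing leaves, fell from 52.2, 63.7 and 74.3 to 37.2, 20.0 and 37.4 (-0.75 ± 0.16, adjusted p = 0.00476). SWEET1, a glucose transporter, fell from 172.2, 190.0 and 193.0 to 128.1, 148.1 and 115.9 (-0.46 ± 0.1, adjusted p = 0.00492). Both were separated between the lines, but with the GAPDH covariate neither was called (-0.38, adjusted p = 0.64, and -0.34, adjusted p = 0.474) and the list had 1 fall and no rise. SWEET2 (-0.35), of the vacuole membrane, was lost without any one of the 6 arrays (up to 0.105), SWEET16 (0.47), also vacuolar and overlapping between the lines, was lost without B1798 replicate 2 or 3 or iae2 replicate 1 or 3 (up to 0.142), and SWEET11, which loads phloem, did not pass (-0.28).

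Of 7 starch and sucrose genes 2 rose and 1 fell (42.9%). AT4G24450, which the annotation lists under the symbol PWD of the starch-phosphorylating dikinases, rose from 24.5, 26.2 and 27.6 to 52.7, 63.1 and 63.9 (0.85 ± 0.12, adjusted p = 0.000183) and stayed called with the covariate (1.05). The sucrose synthesis gene ATSPS4F rose by 0.40, lost without B1798 replicate 1 or 2 or iae2 replicate 1 or 3 (up to 0.111). AMY1, an alpha-amylase gene, fell by 0.42 on the log2 scale, lost without any array other than B1798 replicate 1 (up to 0.173). Central metabolism was near the background, with 1 fall among 11 genes of glycolysis, the TCA cycle and the pentose phosphate path (9.09%, against 16.3% of all genes). GAPC2 of this list did not pass (0.06).

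Aldehyde-clearing enzymes had 4 falls and 1 rise among 14 tested (35.7%, median -0.15). ALDH6B2, for the mitochondrial methylmalonate-semialdehyde dehydrogenase of valine breakdown, fell from 643.9, 546.9 and 538.2 to 385.4, 367.9 and 348.8 (-0.62 ± 0.09, adjusted p = 0.000204) and was called with the covariate (-0.95). ALDH7B4, induced by salt and drought, fell from 1610.8, 1882.1 and 1761.2 to 1306.8, 1224.7 and 1289.7 (-0.45 ± 0.09, adjusted p = 0.00224), and ALDH2C4, of ferulate and sinapate synthesis, by 0.45 on the log2 scale (adjusted p = 0.00202). These falls were complete across arrays. AER (-0.36) was lost without B1798 replicate 3 or iae2 replicate 1 (up to 0.0565) and the rise of ALDH10A8 (0.28) without any array other than B1798 replicate 1 (up to 0.122).

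Cold, drought and abscisic acid genes had 3 rises and 2 falls among 12 tested (41.7%, median 0.22). DI21, a drought-induced gene, rose from 226.7, 199.2 and 224.4 to 372.5, 347.8 and 388.1 (0.73 ± 0.08, adjusted p = 3.54e-05), beside COR15A (0.74) and COR15B (0.76), which protect chloroplast membranes in the cold. M10, of the late embryogenesis abundant type, fell from 67.9, 70.5 and 45.0 to 12.5, 17.5 and 4.1 (-1.51 ± 0.19, adjusted p = 6.95e-05), and the dehydrin gene COR47 by 0.49 on the log2 scale (adjusted p = 0.00189). Each of these was separated between the lines, and COR15B and M10 were still called with the covariate. COR15A passed the brightness filter in iae2 only and M10 in B1798 only, so both entered through the line where they were high.

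No member was called by limma among 14 chaperonin and co-chaperone genes (-0.20 to 0.15), 8 of cell cycle and replication (-0.37 to 0.26), 6 histone genes (-0.15 to 0.07), 5 heat shock genes (-0.12 to 0.15), 9 nitrate, ammonium and amino acid transporters (-0.27 to 0.16), 6 WRKY factors (-0.25 to 0.15) and 8 MADS-box factors (-0.35 to 0.26). At an unadjusted p below 0.05 these lists held 2 nitrate, ammonium and amino acid transporters and 1 gene each of the cell cycle, WRKY and MADS-box lists, and none of the chaperonins, histones or heat shock genes, against 28.6% of all genes. With 16.3% of all genes called, lists of this size can hold no called gene without standing apart. With quantile normalization 1 MADS-box gene was called higher and 1 transporter lower, the latter also with equal array medians, and 1 MADS-box gene was called without B1798 replicate 3 or without iae2 replicate 3. The share called was 9.38% for vesicle traffic (3 of 32), 5.56% for mRNA processing (1 of 18) and 6.67% for calmodulin-like and IQ-domain proteins (1 of 15). It was 9.09% for autophagy (1 of 11) and 14.3% for the proteasome and ubiquitin system (5 of 35), against 16.3% of all genes. Whether any of these shares differs from that of all genes was not tested. In the proteasome and ubiquitin list, LUL1, a ubiquitin ligase gene, rose from 8.1, 8.0 and 11.2 to 44.5, 44.9 and 44.4 (1.27 ± 0.13, adjusted p = 1.07e-05), having passed the brightness filter in iae2 only.

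Of 18 bZIP and HD-ZIP genes BZIP53, a factor of amino acid and low-energy responses, fell from 543.5, 557.4 and 513.0 to 348.0, 344.1 and 357.0 (-0.6 ± 0.08, adjusted p = 8.62e-05). FHL, which carries phytochrome A into the nucleus, rose from 81.7, 87.8 and 118.9 to 166.0, 157.6 and 171.0 (0.7 ± 0.12, adjusted p = 0.000689), the 1 call of 5 clock and light genes. Among 12 silencing and chromatin genes, NRPB6B and NRPB9B, for subunits of nuclear RNA polymerases, fell by 0.47 and by 0.48 on the log2 scale (adjusted p = 0.00275 and 0.00459), and NRPE7 of polymerase V rose by 0.62, lost without any array other than B1798 replicate 1 (up to 0.116). Of 16 listed DNA repair genes 4 were tested and none was called by limma, or had an unadjusted p below 0.05 (-0.22 to 0.04).

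Several of the largest rises were in genes that the lists do not hold. AT2G25510 went from 34.5, 52.3 and 54.8 to 2270.3, 2545.1 and 2375.5, a change of 5.27 ± 0.11 (adjusted p = 1.84e-12), and AT1G66100, of the thionin family like the fallen THI2.1, from 7.9, 2.7 and 10.1 to 483.3, 519.0 and 553.6 (4.56 ± 0.12). ECS1, a gene of a wall protein, rose by 3.15. Their means in iae1 were 33.3, 5.33 and 117.0. AT1G66100 was below 16 on every array of iae1 and B1798, so it passed the brightness filter in iae2 only and entered through the line where it was high. Of the 180 probe sets called at 2-fold or more, 76 had no gene named here and 8 had several. The largest rise among the unnamed went from 191.5, 165.2 and 161.4 to 984.2, 1248.9 and 1347.6 (2.67). The largest fall went from 624.7, 563.1 and 456.0 to 61.4, 44.4 and 76.5 (-2.89), on a probe set that can detect related transcripts. Along the chromosomes, 36.0% of the 50 tested genes from AT1G63980 to AT1G65690 were called (13 higher, 5 lower), against 16.3% of all genes. This was the highest share of all the 50-gene stretches, picked after the values were seen, so it is descriptive. Genes next to each other among those tested, with untested loci between them left aside, changed at least 2-fold together in 3 pairs. The pairs were AT2G25450 (2.05) beside AT2G25510, AT5G37990 (2.18) beside AT5G38020 (1.36) and AT5G44400 (1.04) beside PDF1.2, each named after its values were seen. Of all tested genes, 1.29% were called at 2-fold or more. Whether the stretch or the pairs exceed what a random order of the genes would give was not tested.

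The values in iae1 place several of the changes. In the contrast of iae2 and iae1, fitted on all 9 arrays, 1424 genes were called (19.1%), and since both contrasts hold the iae2 arrays they are given side by side and not compared. GRXC1 (1.4 against B1798, 1.6 against iae1), TBL36 (1.55 and 1.49), CaS (1.49 and 1.3), ccsA (1.69 and 1.89), GSTU16 (0.98 and 1.1) and UGT88A1 (1.0 and 0.87) were higher in iae2 than in either line, each past the threshold in both. BGLU46 (-1.4 and -1.68), AOP3 (-1.12 and -1.33), THI2.1 (-1.06 and -0.79) and PRX52 (-1.53 and -1.07) were lower than in either. PDF1.2b differed from B1798 (1.75) but did not pass against iae1 (0.33, adjusted p = 0.238), and the same held for RALFL27 (0.12, adjusted p = 0.629) and M10 (-0.28, adjusted p = 0.312). BGLU28 was lower than in B1798 (-0.58) and higher than in iae1 (1.07, adjusted p = 1.11e-05), where its mean was 55.0.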

How the data were processed

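RNA of the lines was hybridised to Affymetrix ATH1 arrays after oligo-dT priming and biotin labelling, per the labels' protocols. The authors deposited an intensity signal for each of 22810 probe sets per array, on a linear scale with a common trimmed mean; the summary algorithm is not given in the sources used here. Array medians of the 6 arrays lay between 35.7 and 38.1.

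Array controls with AFFX names, 64 in all, did not enter the fit. Testing was limited to probe sets whose signal reached the 40th percentile of its own array on at least 3 of the 6 arrays. Values were taken as log2(value + 16), which understates changes of dim probe sets, and fitted in R 4.3.3 by limma 3.58.1, whose prior variance followed the mean signal; tests were two-sided with Benjamini-Hochberg adjustment over 13879 probe sets. The contrast with iae1 used all 9 arrays. Quality values were compared with exact permutation tests. On simulated data for this comparison with 13879 probe sets, 48 of 100 changes of log2 0.5 and 88 of 100 of log2 1 were recovered, with 3 false calls. Only these changes were put in, a far smaller share than the 16.9% called in the data. Noise was drawn independently for each probe set. Recovery and false calls in the data can therefore differ from these values. The number of arrays limits the precision. Arrays with the same replicate number did not deviate together (r = 0.0486, 0.0374 and -0.0462), so the main fit has no block.

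The probe annotation named 7519 tested probe sets with 1 gene, 284 with several, and 6076 were unnamed here. Loci were matched through the RefSeq genes of TAIR10.1, which give symbols and loci without descriptions; no coordinates are given because the sources name no build. The brightest probe set stood for a gene. The 59 gene lists, by symbol and locus, held 1000 genes, 674 of them tested; the 49 with at least 5 tested genes were described. Lists and members were chosen with earlier results of these data known, so their counts and medians stand beside those of all genes with no set test. Of the 7459 genes, 67 passed the brightness filter on the iae2 arrays alone and 48 on the B1798 arrays alone. Named genes were the 10 largest rises and 10 largest falls with arrays that did not overlap, the 10 brightest called genes, and in each list up to 4 called members by size, up to 2 of the rarer direction and the brightest; of these, the genes of lists described are named, with exceptions marked in the text or given only as a change that did not pass. Figures were drawn with matplotlib 3.10.9 in Python 3.11.15.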

Additional observations from a re-analysis of the deposited data

How the results depend on the processing

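Counts were recomputed under 15 other settings and with each of the 6 arrays left out in turn. Without 1 array, between 1705 and 2109 probe sets were called (977 to 1187 higher, 724 to 922 lower), 184 to 192 of them at least 2-fold, and 888 to 1072 genes. When the GAPDH 3'/5' ratio entered as covariate, 368 probe sets were called, 230 higher and 138 lower, and 207 genes. At an adjusted p below 0.01 these counts were 1287, 754, 533 and 664. The count of at least 2-fold changes was 318 with values below 16 set to 16, 295 with log2(value + 4) and 69 with log2(value + 64), so it depends on how dim values are treated. With the replicate number as a block 2369 probe sets were called, 2226 of them shared with the fit without the block, at 1323 higher and 1046 lower; the numbers do not pair the samples. No other setting moved a count by over 1.5 times, the lowest being 1781 probe sets with no filter and the highest 2623 with array weights.

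Of the 153 called genes in the named set, 14 changed sign with the GAPDH covariate, none of them called there: psbA (0.06), AT4G23670 (0.03), AT3G15450 (0.06), AT1G15930 (0.16), BZIP61 (-0.12), GSTL3 (0.00), SWEET16 (-0.14), NdhN (-0.04), NRPE7 (-0.13), CML30 (-0.05), AMY1 (0.07), ATRER1A (0.17), TET8 (0.04) and NET4B (-0.11). The cause was not tested. Dim genes limit the rest: the median SE was 0.14 in the dimmest of 5 equal groups of genes and 0.088 in the brightest.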

Other observations

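The brightest called genes were all lower in iae2. Besides psbA and PYK10, 8 genes known here by locus alone made up the 10 brightest, among them AT4G16190 (4489.8, 5148.4 and 5000.3 in B1798, 3494.7, 3825.9 and 3705.2 in iae2, a change of -0.41, adjusted p = 0.0102 by limma) and AT2G05540 (2547.5, 2667.3 and 2648.3 against 1947.7, 1949.4 and 1975.9, -0.42, adjusted p = 0.00285). When the GAPDH 3'/5' ratio entered as covariate, none of the 10 was called, and AT4G16190 was at -0.19 and AT2G05540 at -0.35. In both genes all iae2 values lay under all B1798 values. The call of AT4G16190 was lost without B1798 replicate 2 (adjusted p = 0.0506). With quantile normalization, AT3G15450 and AT2G05540 were the only ones of the 10 still called, so the shared fall depends on the scaling.

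Of 51 tested pseudogenes 1 was higher and 4 were lower (9.8% called, against 16.3% of all genes). Called genes made up 16.5%, 19.1%, 14.6%, 17.4% and 14.3% of the tested genes of chromosomes 1 to 5.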
